A study of Sus scrofa with 16 samples.

Results

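The genes described here were grouped under fatty acid oxidation and ketone body production in the liver, with PPARA and genes listed as its targets. A list of 30 genes was matched to the probes of a porcine array by gene name, older symbol or full gene name. Of these 30 genes, 24 were found, 19 of them by their symbol and the others by an older symbol or the full name in the probe description, and they had 75 of the 43603 probes of the array. SLC25A20, ACAA2, BDH1, ETFB, ECI1 and ACOT1 were not matched and were not analysed here. BDH1 was the only listed gene of the ketone body step itself, so the 24 genes do not measure that step. All 75 probes passed the filter on dim probes, so no gene was lost to it.

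The samples were livers taken from 16 pigs (Sus scrofa) when they weighed 20 kg, 8 from a low-RFI line (strain RFIneg) and 8 from a high-RFI line (strain RFIpl). RFI, residual feed intake, is the difference between the feed an animal eats and the feed predicted from its growth and maintenance, and the lines were bred apart on it. Every pig was fed ad libitum, the labels do not state the time from the last meal to sampling, and each liver was hybridised to 1 array. The comparison asked how the lines differ in liver transcripts, and since each direction of selection has 1 line, what selection did and what else sets the lines apart cannot be told apart.

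Fatty acids are activated to acyl-CoA esters, carried into mitochondria by the carnitine shuttle and shortened there in a cycle of dehydrogenation, hydration, a further dehydrogenation and thiolysis. Electron transfer flavoprotein passes the electrons of the first step to the respiratory chain, peroxisomes shorten the longest chains, and acetyl-CoA left over in fasting becomes ketone bodies. The nuclear receptor PPARA, which binds fatty acids, switches on many genes of these steps in the fasting liver.

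Levels are log2 signal minus the 75th percentile of log2 signal on the same array, so a difference of 1 is a 2-fold difference. The tested probe of a gene with the highest mean stands for the gene, and levels of different genes are not compared because probes differ in how well they bind. Differences are low-RFI minus high-RFI, from limma with Benjamini-Hochberg adjustment over 30098 tested probes, with their standard error (SE). In bulk liver, fewer cells of a type and less RNA per cell cannot be told apart.

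Arrays had 28571 to 34982 probes well above background, with a 75th percentile of signal between 320.0 and 508 intensity units and a median local background between 29 and 40. The high-RFI pig 6 stood apart, with the highest count of probes above background and the lowest 75th percentile. It also held the lowest value of 18.1% and the highest value of 16.7% of 3888 named genes. The arrays lay on 4 slides, each with 2 pigs of each line, and the sample numbers formed 2 runs, 1 to 8 and 55 to 62, each with 4 pigs of each line. Of the 6 tested hepatocyte markers (ALB, TTR, APOA1, APOB, SERPINA1 and TF), none was called between the lines, nor was any of 3894 named genes. The mean level of these markers ran from 7.80 to 8.18 over low-RFI livers and from 7.71 to 7.96 over high-RFI livers.

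The probe sequences of 4 genes on which the results turn are printed as the scanner files list them, 60 bases each, to show what was hybridised. ACADVL had the lowest p of the list, FGF21 the widest spread, and CPT1A and ANGPTL4 differed between the runs of sample numbers. The files place their first base at position 666 (ACADVL), 487 (FGF21), 673 (CPT1A) and 433 (ANGPTL4) of the transcript they were designed on, and list no genome position for them. Each has at least 1 reading frame without a stop codon.
ACADVL: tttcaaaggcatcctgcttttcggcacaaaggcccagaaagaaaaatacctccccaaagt
FGF21: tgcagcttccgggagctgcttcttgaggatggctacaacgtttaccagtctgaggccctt
CPT1A: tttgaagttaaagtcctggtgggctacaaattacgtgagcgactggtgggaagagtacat
ANGPTL4: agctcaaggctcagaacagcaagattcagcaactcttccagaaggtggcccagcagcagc
The ACADVL probe is the gene's only one and represents it. For FGF21, CPT1A and ANGPTL4 the printed probe is a dimmer one of the gene, and a brighter probe represents the gene in the values that follow. Between the runs the printed ANGPTL4 probe passed the test (-1.27, adjusted p = 0.043 by limma) and the printed CPT1A probe did not (-0.60, adjusted p = 0.20 by limma).

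None of the 24 genes passed an adjusted p of 0.05 between the lines, against 3 of 30098 tested probes, or 0.00997%. The lowest adjusted p of the list was 0.59 by limma. In low-RFI livers 14 genes had a higher mean and 10 a lower one, with a median difference of 0.03. The split was 10 higher and 14 lower with normexp background correction, 12 and 12 with quantile normalization or cyclic loess, and 16 and 8 with median scaling. Over 3894 named genes 54.9% were higher in low-RFI livers and the median difference was 0.02. Of the 24 genes, 1 had an unadjusted p under 0.05, where 5.06% of named genes did, and in none did the 8 low-RFI values lie wholly above or below the 8 high-RFI values, which held for 0.0257% of named genes.

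The interval of the difference bounds what these 16 pigs could show. For 22 of the 24 genes the 95% interval of the representing probe lay within 1 log2 unit on either side of 0. For those probes this leaves out a 2-fold difference. FGF21 (-2.14 to 0.66) and ANGPTL4 (-0.63 to 1.13) were the exceptions. The interval of CPT1A reached 0.99, and 1 of its dimmer probes had a larger difference, 0.37 (SE 0.35). The intervals were not adjusted for the number of genes or probes. For 13 genes the interval lay within 0.5 log2 units. The narrowest belonged to ACADS, from -0.13 to 0.29, and ETFDH, from -0.26 to 0.22.

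**Figure D1:**
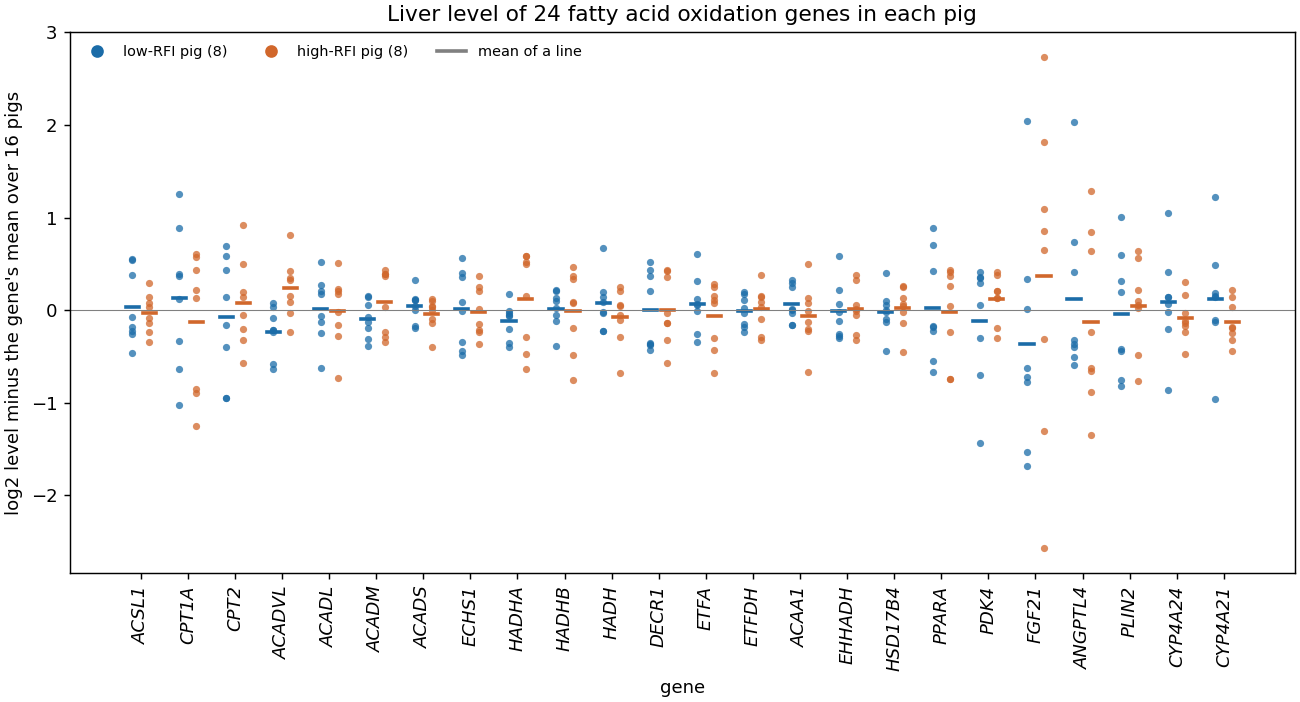
The log2 level of each of the 24 genes in each pig, minus the gene's mean over the 16 pigs, with low-RFI pigs in blue, high-RFI pigs in orange and a bar for the mean of a line. The lines overlap in every gene. The range over the pigs is widest for FGF21, from -4.02 to 1.30 in log2 level, and narrowest for ETFDH, from 3.84 to 4.54.

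Activation and transport of fatty acids into mitochondria came first in the order of the pathway. ACSL1, the long-chain acyl-CoA synthetase of liver, had levels from 4.38 to 5.39 (median 4.71) in low-RFI and from 4.49 to 5.13 (median 4.81) in high-RFI livers. The ranges overlapped almost wholly, and the difference was 0.07 (SE 0.16, adjusted p = 1.0 by limma). Its 3 probes all peaked in low-RFI pig 8.

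CPT1A, the carnitine palmitoyltransferase of the outer mitochondrial membrane and the controlled entry step of the pathway, ranged from 3.55 to 5.82 (median 4.81) in low-RFI and from 3.31 to 5.18 (median 4.75) in high-RFI livers. The ranges overlapped, with low-RFI pigs 1 and 3 above every high-RFI pig. The difference of 0.26 (SE 0.35, adjusted p = 0.99 by limma) was smaller than the SD of either line, 0.76 and 0.75. All 6 of its probes had low-RFI pig 1 highest and high-RFI pig 8 lowest, and all 6 differed in the same direction, by 0.08 to 0.37. CPT2, its partner at the inner membrane, was measured by 1 probe with levels from -1.77 to -0.12 in low-RFI and from -1.39 to 0.10 in high-RFI livers, a difference of -0.15 (SE 0.27, adjusted p = 1.0 by limma).

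The acyl-CoA dehydrogenases take the first step of the mitochondrial cycle, each for its own range of chain lengths. ACADVL, the very-long-chain enzyme, ranged from 0.36 to 1.08 (median 0.78) in low-RFI and from 0.76 to 1.81 (median 1.23) in high-RFI livers. Of the low-RFI pigs, pigs 2 and 7 lay lowest, and high-RFI pigs 8 and 7, the lowest of their line, lay within the low-RFI range. High-RFI pig 6, whose array stood apart, was highest, and without it the difference between the lines was -0.39. The mean was 0.76 ± 0.26 (SD, n = 8) against 1.23 ± 0.32, and the difference of -0.47 (SE 0.15) had an unadjusted p of 0.0051 by limma. It did not pass the threshold, with an adjusted p of 0.59. Within the slides the difference was -1.06, -0.41, -0.13 and -0.27, and with sample-number run as a block the adjusted p was 0.50, in a range of 0.42 to 1.0 over its alternatives.

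ACADM, the medium-chain enzyme, had levels from 4.59 to 5.13 (median 4.87) in low-RFI and from 4.63 to 5.41 (median 5.17) in high-RFI livers. The values above the low-RFI maximum came from high-RFI pigs 3, 5, 7 and 8, and the other high-RFI pigs lay within the low-RFI range. The difference was -0.19 (SE 0.14, adjusted p = 0.98 by limma), and its 7 probes gave -0.30 to -0.12, all in the same direction. ACADL, the long-chain enzyme, was measured by 6 probes, with differences between 0.00 and 0.07. ACADS, the short-chain enzyme, had the lowest SD within the lines of all 24 genes, 0.17. It ranged from 5.73 to 6.25 in low-RFI and from 5.53 to 6.05 in high-RFI livers, with a difference of 0.08 (SE 0.10).

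The later steps of the cycle belong to ECHS1, the short-chain enoyl-CoA hydratase, to HADH, the hydroxyacyl-CoA dehydrogenase, and to the trifunctional protein, whose subunits HADHA and HADHB work on long chains. ECHS1 had levels from 7.52 to 8.56 in low-RFI and from 7.64 to 8.37 in high-RFI livers. Its probes did not give the same size of difference, with 0.03 (SE 0.17) for the brighter one and 0.24 (SE 0.12, unadjusted p = 0.065 and adjusted p = 0.95 by limma) for the other. HADH differed by 0.15 (SE 0.15), and DECR1, which handles double bonds of unsaturated fatty acids, by 0.00 (SE 0.19).

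HADHA ranged from 2.34 to 2.91 (median 2.69) in low-RFI and from 2.10 to 3.32 (median 3.07) in high-RFI livers. High-RFI pigs 1, 2, 3 and 5 lay above every low-RFI pig and high-RFI pigs 7 and 8 lay below every one, so the high-RFI values stood on both sides. The SD over low-RFI livers was 0.19, that over high-RFI livers 0.51, and the means differed by -0.23 (SE 0.19, adjusted p = 0.98 by limma). HADHB showed the same order of SD, 0.20 and 0.44, with a difference in mean of 0.03 (SE 0.17). The difference in SD between the lines was not tested.

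Electron transfer flavoprotein takes up the electrons of the dehydrogenases, and its own dehydrogenase ETFDH hands them to ubiquinone. ETFA, its alpha subunit, had levels from 4.40 to 5.35 in low-RFI and from 4.06 to 5.02 in high-RFI livers, and the difference was 0.14 (SE 0.16). All 8 of its probes peaked in low-RFI pig 8 and gave differences of 0.03 to 0.16. ETFDH ranged from 3.93 to 4.36 in low-RFI and from 3.84 to 4.54 in high-RFI livers, with a difference of -0.02 (SE 0.11).

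The peroxisomal genes were as close between the lines. EHHADH, the bifunctional enzyme of the PPARA-driven peroxisomal pathway, had levels from 2.35 to 3.23 in low-RFI and from 2.32 to 3.03 in high-RFI livers, a difference of -0.03 (SE 0.14). HSD17B4, the other bifunctional enzyme, which handles branched and very long chains, differed by -0.04 (SE 0.12). ACAA1, the peroxisomal thiolase, differed by 0.13 (SE 0.14).

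PPARA and its target genes held the widest spread. PPARA was measured by 2 probes of which the brighter ranged from -0.45 to 1.11 (median 0.05) in low-RFI and from -0.52 to 0.66 (median 0.38) in high-RFI livers, with a difference of 0.05 (SE 0.25). The dimmer probe gave -0.11 (SE 0.13), with an SD over the 16 pigs of 0.24 where the brighter had 0.52. The PPARA probes thus differed in direction and in spread.

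FGF21, a fasting hormone secreted by the liver, ranged from -3.12 to 0.61 (median -2.12) in low-RFI and from -4.02 to 1.30 (median -0.69) in high-RFI livers. The highest and the lowest liver were both high-RFI, pigs 7 and 5, and lay 39.7-fold apart. The lowest value, -4.02, was dim, though the probe was well above background on all 16 arrays. The part of low signal in this span was not tested. The means were -1.81 ± 1.19 (SD, n = 8) and -1.07 ± 1.71, and the difference of -0.74 (SE 0.67, adjusted p = 0.98 by limma) was the largest of the list but smaller than the SD of either line. It was -0.40 without high-RFI pig 7 and -1.16 without high-RFI pig 5, the ends of its range when 1 pig was left out. The other probe, whose sequence is printed above, gave -0.74 (SE 0.54), and both probes had the same highest and the same lowest pig.

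PDK4, the kinase that shuts off pyruvate dehydrogenase and so spares glucose, ranged from 3.33 to 5.18 (median 4.94) in low-RFI and from 4.46 to 5.18 (median 4.93) in high-RFI livers. The medians were nearly equal and the low-RFI range reached further down through pig 2 (3.33) and pig 1 (4.06), the former being the lowest of the 16 pigs in all 9 probes. The SD over low-RFI livers was 0.66, that over high-RFI livers 0.25, and the difference in mean was -0.24 (SE 0.23, adjusted p = 0.98 by limma).

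ANGPTL4, a secreted inhibitor of lipoprotein lipase, ranged from 2.53 to 5.15 (median 2.77) in low-RFI and from 1.76 to 4.40 (median 2.68) in high-RFI livers, with a difference of 0.25 (SE 0.42). Low-RFI pig 3 was highest in both of its probes and high-RFI pig 6 lowest in both. PLIN2, the coat protein of lipid droplets, ranged from -1.90 to -0.08 in low-RFI and from -1.85 to -0.44 in high-RFI livers, with a difference of -0.08 (SE 0.27).

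CYP4A24 and CYP4A21 are porcine genes of the CYP4A family. CYP4A24 ranged from 6.37 to 8.29 in low-RFI and from 6.76 to 7.55 in high-RFI livers, with low-RFI pig 5 lowest and low-RFI pig 8 highest. CYP4A21 had the same lowest and highest pig, and the differences were 0.18 (SE 0.20) and 0.25 (SE 0.22). The representing probes of these genes overlap by 49 bases, of which 47 are the same letters, so the array may not separate the transcripts and the values are uncertain as values of single genes. Across the 4 probes named CYP4A21 the difference ran from -0.09 to 0.29.

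**Figure D2:**
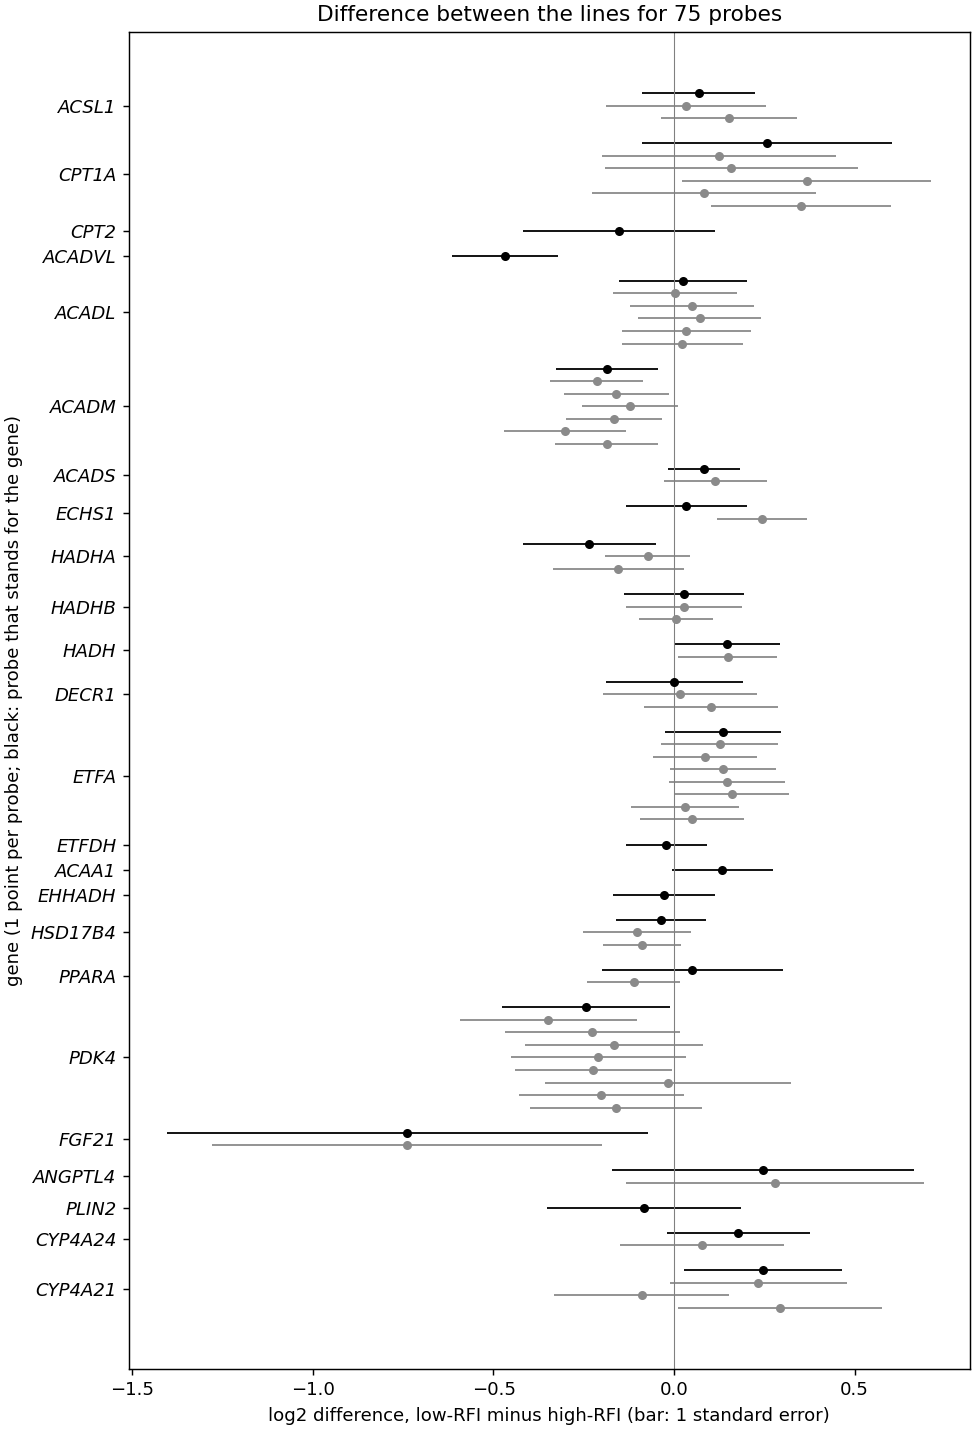
The log2 difference, low-RFI minus high-RFI, with 1 standard error for each of the 75 probes, grouped by gene, with the representing probe in black. Only the ACADVL point lies more than 3 standard errors from 0 (-0.47, SE 0.15). The probes of ACADM (7), PDK4 (9), CPT1A (6) and ETFA (8) each lie on 1 side of 0, and those of PPARA and CYP4A21 on both.

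Further genes of the pathway were counted from a list of 77, of which 40 were measured. None was called between the lines, 17 had a higher and 23 a lower mean in low-RFI livers, and the median difference was -0.02. The lowest p in the lower direction belonged to SLC27A2, a very-long-chain acyl-CoA synthetase and fatty acid transporter, with 3.89 ± 0.29 (SD, n = 8) in low-RFI and 4.28 ± 0.28 in high-RFI livers and a difference of -0.39 (SE 0.14, adjusted p = 0.72 by limma). CRAT, the carnitine acetyltransferase, at -0.13 (SE 0.08) and PHYH, which starts the oxidation of phytanic acid, at -0.22 (SE 0.14) followed. In the higher direction the lowest p belonged to KLF15, a transcription factor of fasting metabolism, at 0.39 (SE 0.21), PDK1 at 0.19 (SE 0.10) and SIRT3, a mitochondrial deacetylase, at 0.22 (SE 0.13), none of which passed.

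The spread between pigs within a line set the genes apart more than the line did. The within-line SD, pooled over both lines, was 1.47 for FGF21, which is above that of 99.6% of 3894 named genes, 0.92 for ANGPTL4 (97.4%) and 0.76 for CPT1A (94.7%). PLIN2 followed with 0.58, CPT2 with 0.57, PPARA with 0.54, PDK4 with 0.50 and CYP4A21 with 0.47, so that 8 of the 24 genes lay above the upper quartile of all named genes, 0.45. At the low end of the within-line SDs ACADS had 0.17, ETFDH 0.20 and HSD17B4 0.23, against a median of 0.32 over all named genes. Each line had pigs in both runs of sample numbers, so the within-line SDs include the run differences of ANGPTL4 and CPT1A described below. Within the first and second run the SD was 0.78 and 0.32 for ANGPTL4, and 0.40 and 0.64 for CPT1A.

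**Figure D3:**
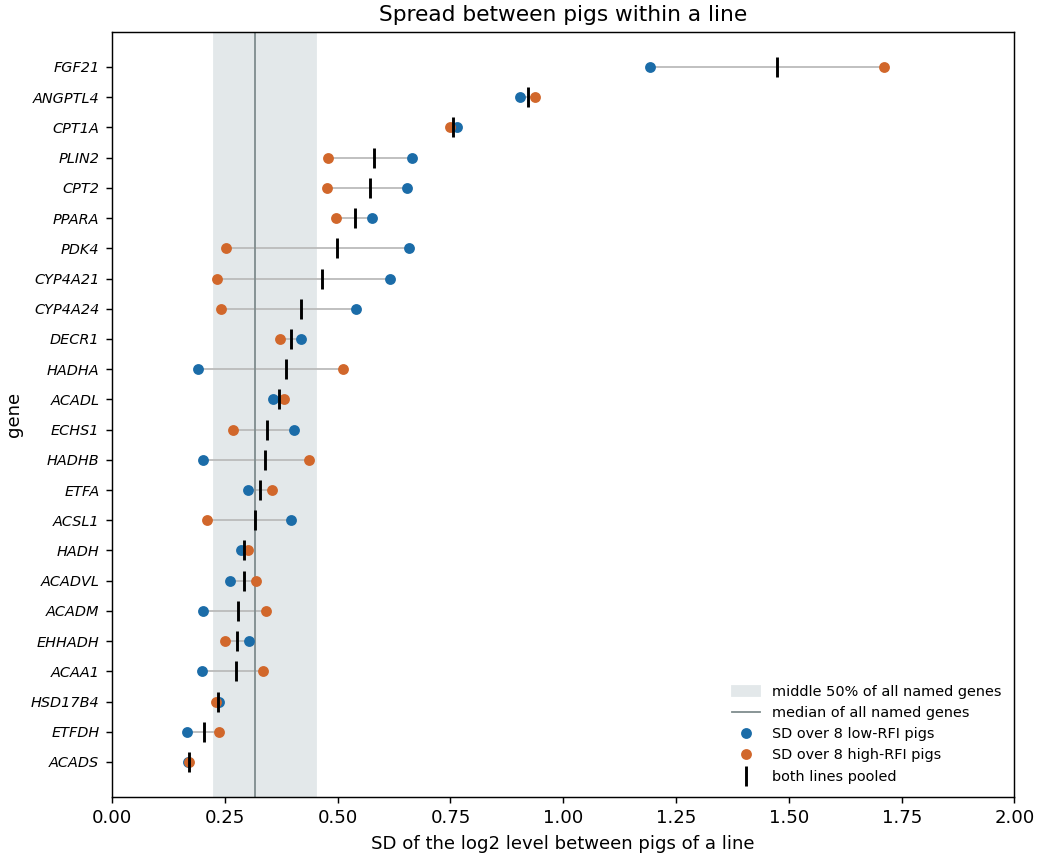
The SD of the log2 level between the 8 pigs of each line, low-RFI in blue and high-RFI in orange, with the pooled value as a black mark and the middle 50% of 3894 named genes shaded. FGF21 (1.47), ANGPTL4 (0.92) and CPT1A (0.76) lie to the right of the shaded band, and the pooled values of the mitochondrial cycle, electron transfer and peroxisomal enzymes lie within it or to its left.

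Single pigs stood at the ends of many of these genes. Low-RFI pig 8 had the highest level in 9 of the 24 genes (ACSL1, ACADL, ACADS, HADH, ETFA, EHHADH, HSD17B4, CYP4A24 and CYP4A21), or 37.5%, where it was highest in 8.51% of all named genes. High-RFI pig 6, whose array stood apart as given above, had the lowest level in 10 (ACADL, ACADS, HADHB, HADH, DECR1, ETFA, ETFDH, ACAA1, HSD17B4 and ANGPTL4), or 41.7%, where it was lowest in 18.1% of all named genes. The median deviation of the 24 genes from their means was 0.36 in low-RFI pig 8 and -0.38 in high-RFI pig 6, and the same over all named genes was 0.01 and -0.06. Without low-RFI pig 8 the median difference between the lines over the 24 genes was -0.01, and without high-RFI pig 6 it was -0.06, against 0.03 with all pigs. No gene was called without either. The part of array quality in the values of high-RFI pig 6 was not tested.

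Relations between genes that work together were computed over the 16 pigs for 12 pairs, with two-sided permutation tests of 100000 permutations and Benjamini-Hochberg adjustment over the 12. The subunits of the trifunctional protein, HADHA and HADHB, rose and fell together, with Pearson's r = 0.74 (permutation p = 0.001, adjusted p = 0.006) and Spearman's rho = 0.79 (permutation p = 0.00067, adjusted p = 0.004). Without the 2 pigs farthest from the HADHA median r was 0.73, within the lines it was 0.65 (low-RFI) and 0.82 (high-RFI), and within the runs of sample numbers 0.80 and 0.76. With slide means subtracted r was 0.75.

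PPARA and FGF21 rose together, with r = 0.73 (permutation p = 0.0018, adjusted p = 0.0072) and rho = 0.74 (permutation p = 0.0018, adjusted p = 0.0072). Without the 2 pigs farthest from the PPARA median r was 0.74, within low-RFI it was 0.71, within high-RFI 0.85, and within the runs 0.90 and 0.62. The relation held for the brighter PPARA probe with both FGF21 probes, r = 0.73 and 0.68 (n = 16). The dimmer PPARA probe gave r = -0.21 and -0.16 with them (permutation p = 0.43 and 0.55), so the relation rests on 1 of the 2 PPARA probes.

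CYP4A24 and CYP4A21 had r = 0.99 and rho = 0.95 (permutation p = 1e-05 for both, the smallest that 100000 permutations can give), between the overlapping probes described above. The other 9 pairs did not pass an adjusted p of 0.05. PLIN2 and ANGPTL4 gave r = 0.47 and rho = 0.44 (permutation p = 0.064 and 0.093), but 0.38 and -0.57 within the runs of sample numbers and 0.06 with run means subtracted. CPT1A gave r = -0.34 with PDK4, -0.13 with CPT2 and -0.12 with PPARA, and their rho was -0.22, -0.15 and -0.20. For CPT1A and PDK4 r within low-RFI livers was -0.61, and within high-RFI livers 0.39. ETFA and ETFDH gave r = -0.06 over all pigs and -0.67 (permutation p = 0.0093, adjusted p = 0.028) without low-RFI pig 8 and high-RFI pig 6, the pigs farthest from the ETFA median. ACAA1 and EHHADH gave -0.36, EHHADH and HSD17B4 0.26, PDK4 and ANGPTL4 -0.18, and PPARA and PDK4 0.03.

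**Figure D4:**
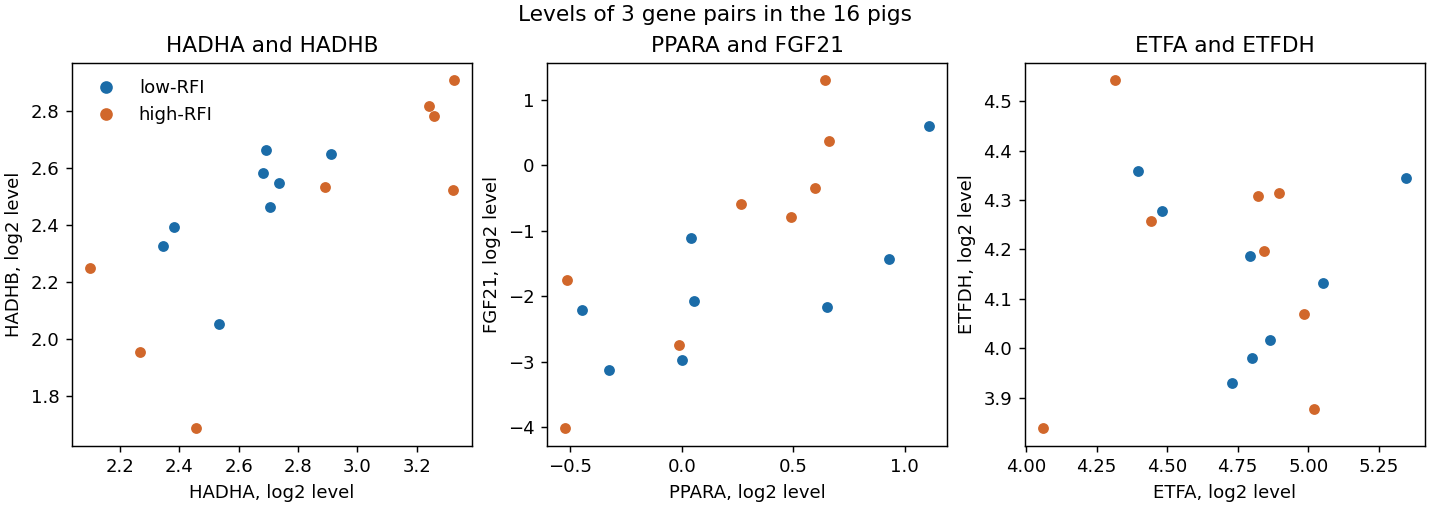
The log2 levels of HADHA and HADHB, PPARA and FGF21, and ETFA and ETFDH in the 16 pigs, 1 point per pig, low-RFI in blue and high-RFI in orange. The first and second panels rise (r = 0.74 and 0.73), and in the third 2 pigs at the ends of the ETFA axis leave r at -0.06.

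The run of sample numbers moved with CPT1A and ANGPTL4. The labels do not say what the numbers stand for. With line as a term, 2 of the 24 genes passed between the runs, both lower in the second run, against 75 of 3894 named genes, or 1.93%, of which 53 (1.36% of all named genes) were lower. CPT1A was 4.69 to 5.82 (median 5.04) in the first run and 3.31 to 5.01 (median 3.83) in the second, where pig 5 of each line was highest and lay within the range of the first run. The means were 5.09 ± 0.40 and 4.05 ± 0.64 (SD, n = 8 each), a difference of -1.04 (SE 0.25, adjusted p = 0.046 by limma).

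ANGPTL4 was 2.75 to 5.15 (median 3.80) in the first run and 1.76 to 2.79 (median 2.51) in the second. Pig 1 of each line, the lowest of the first run, lay next to the second run, and the other pigs of the first run lay above all of it. The means were 3.78 ± 0.78 and 2.45 ± 0.32 (SD, n = 8 each), a difference of -1.34 (SE 0.28, adjusted p = 0.035 by limma). Both probes of ANGPTL4 and 2 of the 6 of CPT1A passed. PLIN2 differed by -0.62 (SE 0.23) and PDK4 by 0.41 (SE 0.22), neither of which passed, with adjusted p = 0.12 and 0.24 by limma.

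Both calls lay near the threshold. They were lost with normexp background correction, where CPT1A had an adjusted p of 0.086 and ANGPTL4 one of 0.053 by limma. Leaving out 1 pig lost the call of CPT1A for 12 of the 16 pigs, all but low-RFI pigs 1, 4 and 5 and high-RFI pig 5. That of ANGPTL4 was lost for 7, low-RFI pigs 2, 6 and 7 and high-RFI pigs 2, 3, 4 and 7. The differences then lay between -1.21 and -0.94 for CPT1A and between -1.51 and -1.15 for ANGPTL4. Of the 40 other pathway genes, ACSL4, a synthetase that prefers arachidonic acid, rose by 1.76 (SE 0.42, adjusted p = 0.046 by limma) from the first run to the second. SLC16A1, the carrier of lactate and ketone bodies, fell by 0.53 on the log2 scale (SE 0.13, adjusted p = 0.047 by limma). Out of 31 tested cell type markers none was called between the runs, where 1.93% of all named genes were. With so few markers this count says little about the cells. The markers came from hepatocyte, Kupffer, T and NK, stellate, endothelial, bile duct, fat, muscle and pancreas lists. The median difference, second run minus first, was 0.56 over 4 T and NK cell markers, 0.35 over 3 muscle, 0.31 over 3 pancreas and -0.34 over 3 endothelial markers, and between -0.15 and 0.16 over the other lists. The mean level of the T and NK cell markers ran from -3.15 to -1.65 in the first run and from -3.17 to -0.97 in the second, and that of the endothelial markers from 1.22 to 1.59 and from 0.99 to 1.38, so the runs overlapped. The part of these cells in the differences of CPT1A and ANGPTL4 was not tested.

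**Figure D5:**
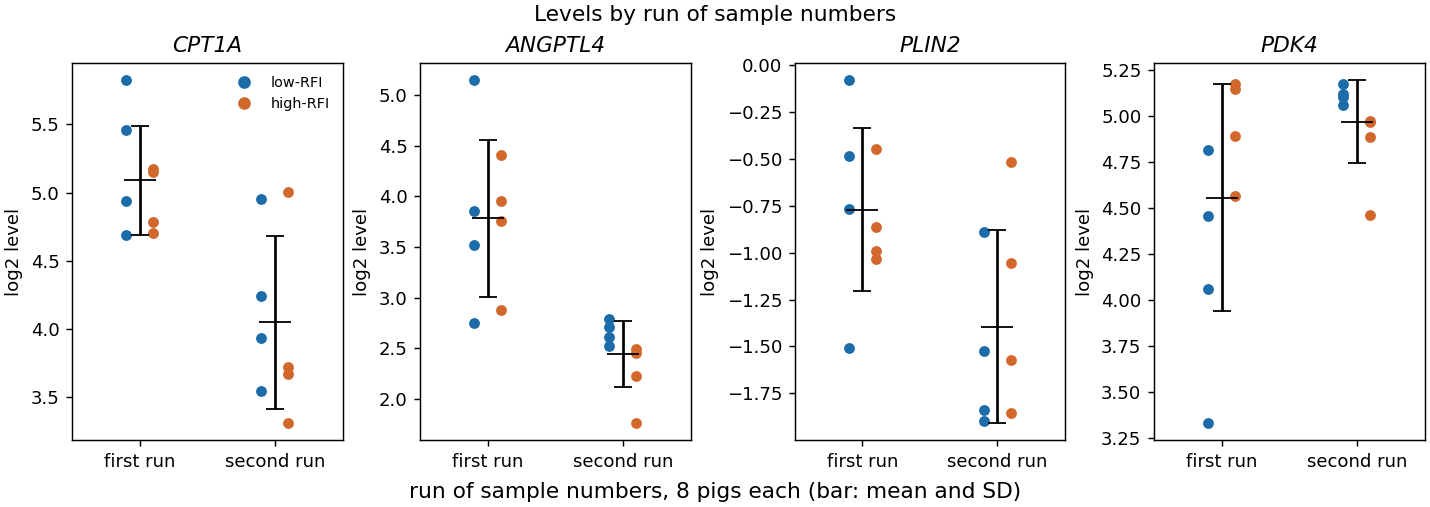
The log2 levels of CPT1A, ANGPTL4, PLIN2 and PDK4 in the 8 pigs of each run of sample numbers, low-RFI in blue and high-RFI in orange, with the mean and SD as a black bar. CPT1A (means 5.09 and 4.05) and ANGPTL4 (3.78 and 2.45) are lower in the second run in both lines, and the runs overlap in each gene.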

How the data were processed

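Per the file headers, scans were quantified by Feature Extraction 10.7.3.1 (Agilent). Its deposited processed signal is a linear intensity from which background was subtracted within each array, with no step between arrays. The mean and local background intensities come from the same deposited files. The authors' table lists 27938 spots as log2 values, equal to the log2 processed signal minus the array median within 4.5e-08. The submitters' processing notes name R 2.10.0, and no source used here gives the authors' spot filter.

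After outlier spots were dropped, each array was shifted so that the 75th percentile of its log2 signal was 0, and repeated spots were averaged per probe. Probes well above background on at least 8 of 16 arrays were tested with limma 3.58.1 in R 4.3.3, in a fit that was tested on simulated data. The labels do not say whether same-numbered pigs are related, and the limma p-values set a difference against the spread between these pigs. All members are named by rule. Of the other pathway genes, those past the threshold, or else the 3 with the smallest p in each direction, were named; some genes are not reported here. The members, lists and pairs were chosen with earlier results of these data known. The comparison between runs of sample numbers, run means within pairs and the second PPARA probe were added after seeing the data. Background correction, normalization, filters, slide, run and replicate blocks, array noise, array weights and leaving out each pig were tried as alternatives. Of the marker lists, the erythroid one had no tested gene.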

Additional observations from a re-analysis of the deposited data

Results flagged for a closer look

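HADH in low-RFI livers was highest in pig 8, at 5.43, with the next pig at 4.95 and the lowest at 4.53. The gap between the first 2 of these values was 0.53 of the range of the line, above Dixon's 95% limit for 8 samples. It was the only one of 48 sets of 8 pigs (24 genes in 2 lines) past that limit, and chance alone passes about 1 in 20. The same pig was highest in both HADH probes.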

How the results depend on the processing

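No gene of the 24 was called under any of the 35 alternatives run for each gene, and 97 of these 840 values had the other sign, none of them called. The count of all called probes, 3, became 1 with probes well above background on all 16 arrays, 0 on slides 1, 3 and 4 alone and 7 with array weights, and was 2 to 5 without 1 pig, 5 without low-RFI pig 2 or high-RFI pig 4. The median difference of the 24 genes was -0.17 on slide 2 alone and -0.06 to 0.08 without 1 pig, and turned negative with normexp (-0.03), quantile normalization (-0.01), cyclic loess (-0.0032) and array weights (-0.06). The relation of PLIN2 and ANGPTL4 passed with normexp (0.61) and slide means subtracted (0.66), and that of ETFA and ETFDH passed without 2 pigs (-0.67). The relations of HADHA with HADHB and PPARA with FGF21 passed in all 7 alternatives run, none of which was a change of probe. With the dimmer PPARA probe r with the FGF21 probes was -0.21 and -0.16, as given above. Between the runs of sample numbers, 0 of the 24 genes were called with normexp and 0 to 2 without 1 pig. The causes were not tested. With 8 pigs a line, the number of arrays limits the precision.

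Pigs of the lines share replicate numbers. The deviations of same-numbered pigs correlated at 0.05 to 0.40, above 0.1 in 6 of 8 pairs. Of the 16 pigs, 11 correlated best with their own number. Same-numbered pigs always lay in the same run of sample numbers, and each run held 4 pigs of each line. The part of the run in these correlations was not tested. Pairing was to be taken as given only with all 8 pairs above 0.1 or a label that says so, and neither held. With the number as a replicate block, 4 probes and 0 of the 24 genes were called, and the median difference was 0.03.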
